A study of Populus trichocarpa with 15 samples.

Results

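The 38 peak-poor windows were the 10% of the genome, counted in windows of 1 Mb, in which leaves of *Populus trichocarpa* (black cottonwood) had the fewest open chromatin regions. They held 981 of the 55198 open regions found on the 19 chromosomes. To find them, the peaks of 14 ATAC-seq libraries that overlapped or touched were merged into regions, each chromosome was divided into 1 Mb windows from position 0, and the midpoints of the regions were counted in each of the 381 complete windows. The 38 windows with the lowest counts were kept, and the regions in them are the members described here. The other 343 windows held 52419 regions, and 1798 regions lay past the last complete window of their chromosome. The counts therefore chose the windows, and the low number of regions in them is a description and not a finding.

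ATAC-seq uses a transposase that cuts and tags DNA where it is not wrapped tightly in nucleosomes, so that peaks mark accessible sites such as active promoters and enhancers. In plant chromosomes, accessible sites are known to be dense in gene-rich arms and sparse in the compact, repeat-rich heterochromatin that often surrounds centromeres. No annotation of the build used for these files was at hand, so no window is named here as a centromere or as gene-poor.

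All libraries were made from leaves of wild trees in Oregon that were frozen after collection, with no treatment, and each library is 1 branch. Tree 13 and tree 14 (5 libraries each) are main stems of a single individual, and tree 4 (4 libraries) is another tree, so the contrast with tree 4 compares 2 individuals only. Branches of 1 stem share their genotype apart from somatic changes, and the p-values below measure the spread between branches. A further library titled 1.1 was placed in no tree, because its peak names give tree 4, and it entered no comparison. The lists ran from 12801 peaks in branch 13.5 to 39694 in branch 14.3. Read depth is unknown, and absence from a list means only that no peak was called. Few called peaks because the DNA was closed and few because few reads could be placed there cannot be told apart from these lists.

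The peak-poor windows held between 1 and 49 regions, with a median of 22, against a median of 152 and a highest count of 305 in the other windows. The count at the limit was 49, which 5 windows shared. Of these, 2 were taken in by the order of chromosome and position and 3 were not. The last window inside the limit was chr8:18000000-19000000 and the first outside was chr10:2000000-3000000, both with 49 regions. All regions of the peak-poor windows together covered 289.8 kb, or 0.763% of the sequence in these windows, against 4.57% in the other windows. A peak-poor window had a median of 7.57 kb of open sequence, with a range from 0.105 to 16.3 kb, against 44.5 kb.

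The peak-poor windows were spread over 17 of the 19 chromosomes, with none on chromosomes 7 and 9 and at most 4 on one chromosome, which was the number on chromosomes 1, 3 and 8. On chromosome 8 they made up 20% of the windows. Along the chromosomes they lay most often near the middle. When each chromosome was divided into 5 equal parts, 18 of the 38 peak-poor windows (47.4%) fell in the middle part, where 22.8% of all windows were peak-poor. The share was 5.06% in the first part, 6.49% in the second, 6.41% in the fourth and 8.82% in the last. The median distance to the nearer chromosome end, taken as the furthest peak, was 6.57 Mb for peak-poor and 5.19 Mb for other windows. Of the 38 windows that were first or last on a chromosome, 3 were peak-poor (7.89%), so chromosome ends were not free of them. The exceptions to the middle position were clearest on chromosomes 8 and 14, where the windows lay towards the far end, and on chromosomes 3 and 10, where they lay in the first and second parts.

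**Figure D1:**
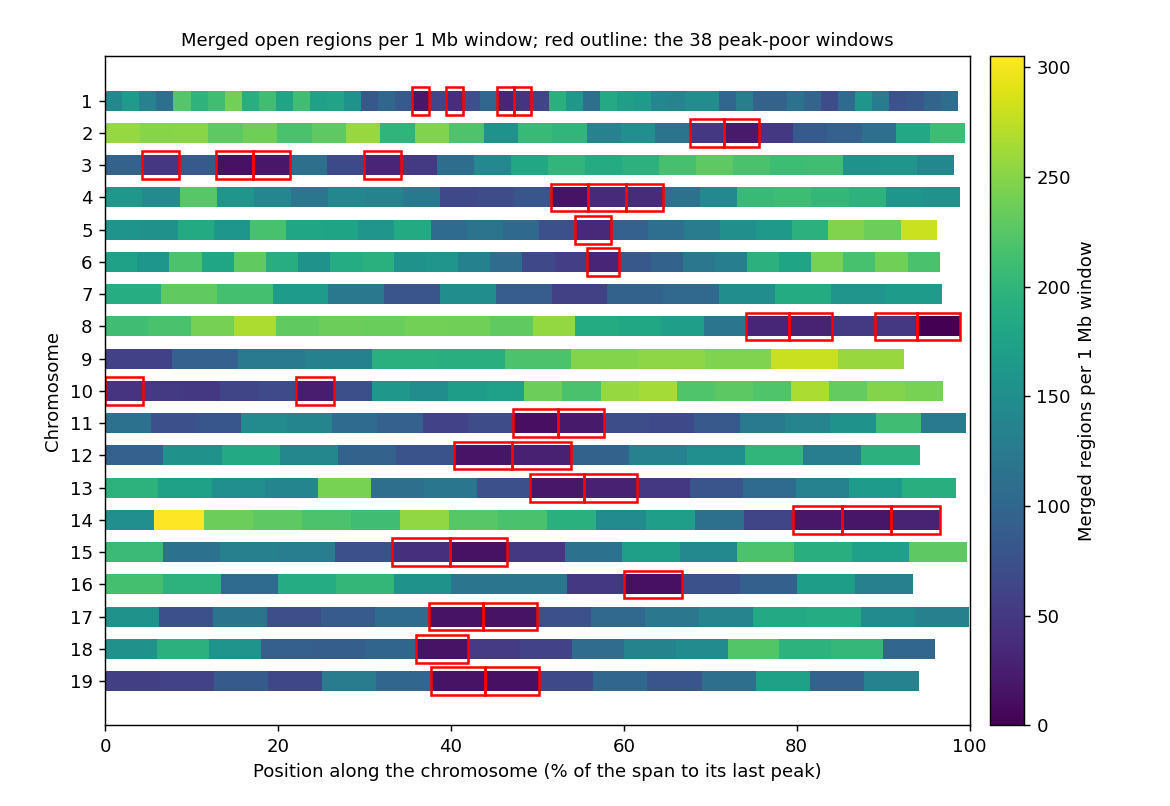
Merged open regions per 1 Mb window (colour) for each of 19 chromosomes, drawn to the share of the span up to the last peak, with the 38 peak-poor windows outlined in red. On most chromosomes the outlined windows form 1 or 2 blocks away from the ends, and chromosomes 7 and 9 have none.

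Peak-poor windows lay beside each other. Of the 38, 28 (73.7%) touched another peak-poor window, and they formed 23 runs, of which 10 were single windows, 11 held 2 windows and 2 held 3 windows. The runs of 3 were chr4:12000000-15000000, with 88 regions of which 8 were called in all 14 libraries, and chr14:14000000-17000000, with 64 regions of which 6 were called in all 14. The run on chromosome 4 spanned 51.6 to 64.5% of the chromosome and that on chromosome 14 spanned 79.6 to 96.6%, so runs of the same length stood at different places along the arms.

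Region number rose step by step away from the peak-poor windows. The mean was 25.8 ± 12.6 regions (SD, n = 38 windows) in the peak-poor windows themselves, 76.8 ± 20.3 (n = 40) in the windows next to them, 104.7 ± 34.3 (n = 32) in those 2 windows away and 184.1 ± 51.1 (n = 155) in those 6 or more windows away. The median share of a window's regions called in all 14 libraries was 10.5% in the peak-poor windows, 13.6% in the windows next to them and 18.1% in those 6 or more away. The peak-poor windows were thus the low points of wider troughs and not isolated gaps. Windows next to a peak-poor one had to hold at least as many regions as the limit, so part of the first step comes from the rule.

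**Figure D2:**
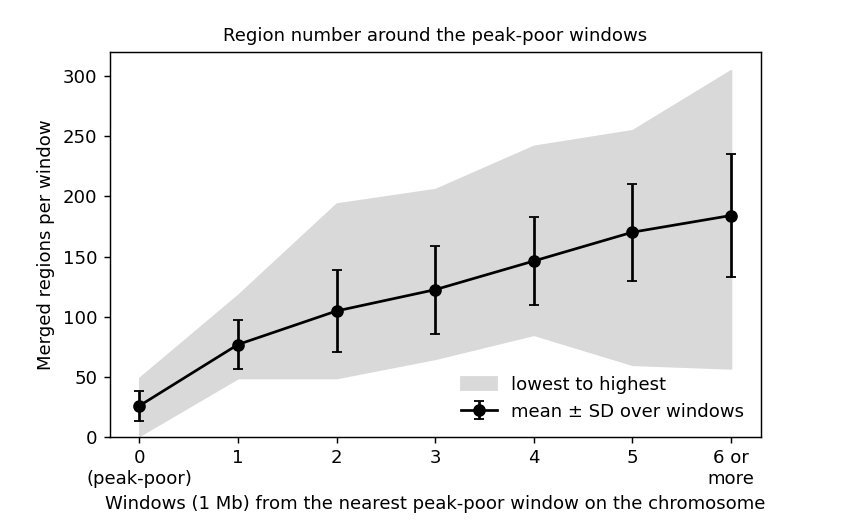
Merged regions per window (mean ± SD over windows, with the range shaded) against the distance in 1 Mb windows from the nearest peak-poor window of the same chromosome; chromosomes 7 and 9, which have none, are left out. The mean went from 25.8 in the peak-poor windows to 76.8 next to them and 184.1 at 6 or more windows.

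The members were not evenly spread inside their windows. When the windows were divided into bins of 100 kb, 131 of 380 bins (34.5%) held no region midpoint, against 60 of 3430 bins (1.75%) in the other windows. Only 1 peak-poor window had no empty bin, and 9 had 5 or more, against 1 of the other windows. The median gap between neighbouring regions, counted where both lay in the same run of windows, was 8.42 kb (quartiles 1.88 and 34.5 kb) against 3.20 kb (1.03 and 7.10 kb), and 84 of 958 gaps reached 100 kb, against 104 of 52380. Of the gaps in peak-poor windows, 53.1% were under 10 kb and 18.4% under 1 kb, against 83.8% and 24.5% in the other windows. The members thus stood at short and at long distances from each other. Low counts, by which the windows were chosen, also give more empty bins and longer gaps. Whether the members were more grouped than their number gives was not tested.

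The longest of these gaps was 1054.94 kb, at chr14:14321663-15376606. It exceeded every gap of the other windows, of which the longest was 777.6 kb. The next longest counted in the same way were 678.2 kb at chr10:269690-947844 and 656.7 kb at chr4:12291181-12947848. The window with the fewest regions was chr8:19000000-20000000, with a single region of 105 bp at chr8:19059776-19059881. That region was called only in branch 13.2, with a −log10 q-value of 3.22, which is low. The region before it ended 98 kb away and the next began 963.6 kb away. That stretch ended past the last complete window of the chromosome, so it is not among the gaps counted above, and it was longer than all of them but the one on chromosome 14.

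In the next 2 windows by count, the regions were also few in every library. In chr11:9000000-10000000, with 11 regions, the 5 libraries of tree 13 had 6, 7, 5, 3 and 3 peaks, those of tree 14 had 4, 5, 11, 8 and 3, and those of tree 4 had 5, 4, 7 and 8. In chr16:9000000-10000000, with 12 regions, the numbers were 2, 2, 2, 3 and 1 in tree 13, 3, 2, 7, 2 and 2 in tree 14, and 1, 1, 3 and 5 in tree 4. The values of the 3 trees overlapped in both windows, and in each window 1 region was called in all 14 libraries.

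The members had about the width of open regions elsewhere. Their median width was 230 bp (quartiles 152 and 377 bp, range 90 to 1762 bp), against 252 bp (163 and 382 bp) for the regions of the other windows. Regions of at least 1000 bp made up 10 of 981 members (1.02%) and 374 of 52419 others (0.713%). Regions called in more libraries were wider, in part by construction, since a region spans all the peaks merged into it. For regions called in 1 library the median was 129 bp in members and 121 bp in others, and for those called in all 14 it was 553 bp and 482 bp.

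The members were called in fewer libraries than regions elsewhere. A member was called in a mean of 5.86 and a median of 4 of the 14 libraries, against 6.82 and 6. Of the members, 277 (28.2%) were called in 1 library, against 23.9% of the others, and 125 (12.7%) were called in all 14, against 17.7%. Both ends of the range moved the same way, with 48.9% of members called in at most 3 libraries against 39.5%. At least 1 library of each tree called 494 members (50.4%), against 58.3% of the others. Members called in tree 4 alone numbered 81 (8.26%, against 5.23%), in tree 13 alone 92 (9.38%, against 8.36%) and in tree 14 alone 143 (14.6%, against 13.5%). These are descriptions of the same 14 libraries that chose the windows, and they carry no test.

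The members called in 1 library came most often from 3 libraries. Branch 14.3 had 57 of the 277, branch 13.2 had 48 and branch 4.5 had 36, while branch 13.5, with the shortest list, had 0. Branch 14.3 also had 21.9% and branch 13.2 had 17.3% of such regions in the other windows, close to their 20.6% and 17.3% here. Branch 4.5 had a larger part here, 13% against 8.95%. Branches 14.3 and 13.2 have the longest lists. The share of members called in all libraries, 12.7% above, depended on the lists. It was 17.2% with lists cut to equal length, 18.7% without branch 13.5 and 6.01% with 50% overlap for a call. With equal lists and without branch 13.5 the windows were chosen anew. The share in the other windows is not given for these settings, so the part of list length was not tested.

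**Figure D3:**
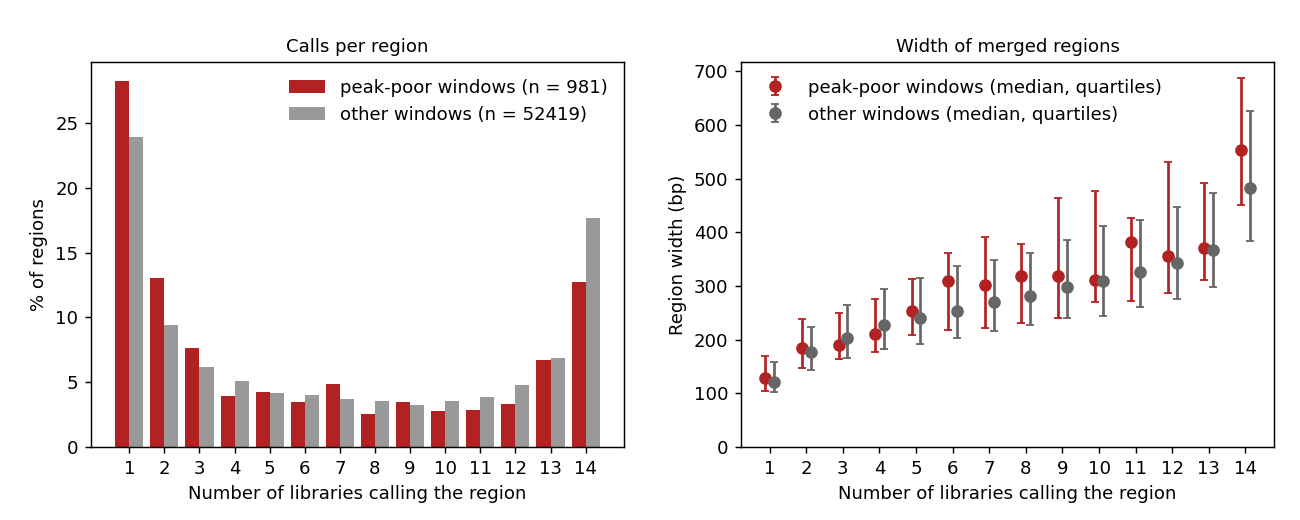
Left, percent of regions by the number of libraries that called them, for the 981 members (red) and the 52419 regions of other windows (grey); right, median region width with quartiles by the same number. Members had the larger share at 1 to 3 libraries and the smaller share at 14, and at 14 libraries the median width was 553 bp in the 125 members and 482 bp in the others.

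Every library had a deficit of calls, though its size differed. Branch 4.5 called 52.1% of the members against 54.3% of the regions elsewhere, and branch 14.4 called 44.6% against 54.8%. On average a library called 41.9 ± 12.5% of the members (SD, n = 14), with a range from 15.2% in branch 13.5 to 63.5% in branch 14.3, and this was below its share of called regions elsewhere in 14 of 14 libraries, with a mean difference of −6.85 ± 1.97 percentage points. The peaks in the peak-poor windows numbered from 150 to 642 per library, or 1.52 ± 0.121% of a library's peaks. The overlap between pairs of libraries, as the Jaccard index (the length that a pair of lists share, divided by their joint length), was 0.480 ± 0.0606 over 91 pairs in these windows and 0.513 ± 0.0535 in the others, and it was lower in the peak-poor windows for 85 of the 91 pairs. It was lower in 23 of 26 pairs within a tree, in 24 of 25 between the stems and in 38 of 40 between the individuals. The pairs share libraries, so these are counts and not tests.

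Members called in all 14 libraries were wider and stronger than such regions elsewhere. In each library, the median width of the peaks in these members was 369 ± 30.9 bp (SD, n = 14), against 323 ± 32.3 bp in the other windows, and it was larger in 14 of 14 libraries. Their median −log10 q-value was 9.69 ± 2.03 against 8.61 ± 1.69 and was higher in 13 of 14. Over all peaks of the windows, by contrast, the median width differed by 2 ± 10.2 bp, above the other windows in 6 libraries, below in 7 and equal in 1, which is within the spread between libraries.

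The strongest members reached high values in every library. The member with the highest mean rank of −log10 q-value within each list was chr14:15535278-15536480, a region of 1202 bp in a window with 17 regions, on the far side of the longest gap. Its −log10 q-values were 52.6, 41.2, 49.4, 39.8 and 52.0 in branches 13.1 to 13.5, 40.5, 40.2, 52.4, 33.4 and 49.9 in branches 14.1 to 14.5, and 47.0, 42.5, 53.6 and 48.7 in branches 4.2 to 4.5. All 14 values were far above the medians of their lists and the trees overlapped, with means of 47.0 ± 6.07 (n = 5), 43.3 ± 7.78 (n = 5) and 48.0 ± 4.59 (n = 4) for trees 13, 14 and 4.

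The next was chr1:20922298-20922707, of 409 bp, in a window of 39 regions. Its −log10 q-values were 28.9, 34.1, 23.6, 20.3 and 22.7 in tree 13, 25.7, 22.5, 35.2, 26.0 and 18.3 in tree 14, and 24.0, 22.4, 32.6 and 30.2 in tree 4. The third was chr10:113490-113929, of 439 bp, in a window of 46 regions, with a mean of 24.7 ± 4.96 (SD, n = 14) and a range from 17.5 to 32.1. In both, branches 13.2, 14.3 and 4.4 had the highest or the next highest value of their tree, and the ranges of the 3 trees overlapped.

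The 3 widest members were not the 3 strongest. The widest, chr15:6270062-6271824, spanned 1762 bp and was called in all 14 libraries with a −log10 q-value of 5.74 ± 1.09 (range 4.18 to 7.97), near the median of all peaks. The second, chr11:9565259-9566615, spanned 1356 bp and was called in 11 libraries (4 of tree 13, 3 of tree 14 and 4 of tree 4) with 4.52 ± 0.941. The third, chr1:24511106-24512327, spanned 1221 bp and was called in all 14 with 8.77 ± 2.25. In the libraries that called them, the mean percentiles of their −log10 q-values within each list were 53.4, 36.3 and 75.5. Their values were a fraction of those of the strongest region on chromosome 14, which was nearly as wide as the third, at 1202 bp. How width and strength went together over all members was not tested.

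To test the windows on data that did not choose them, the same rule was applied to the 4 libraries of tree 4 alone, and the 38 windows found were measured in the 10 libraries of trees 13 and 14. Of these, 34 were also among the peak-poor windows (89.5% of each set). The 4 libraries of tree 4 were among the 14 that chose the peak-poor windows, so part of this overlap comes from the rule. In the 10 libraries the chosen windows had 10.9 ± 3.57 peaks per Mb (SD, n = 10; range 4.00 to 16.5) and the other windows 77.0 ± 21.8 (range 35.5 to 110.0). The ranges did not overlap, and the log2 ratio was −2.85 ± 0.126 (−3.15 to −2.73), a 7.23 ± 0.667-fold difference that was present in 10 of 10 libraries (two-sided exact sign-flip permutation test, p = 0.00195, the smallest these 10 libraries can give; Benjamini-Hochberg adjusted p = 0.0156 over 8 tests). The windows that were poor in 1 individual were therefore poor in the other. What made the windows poor was not tested.

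**Figure D4:**
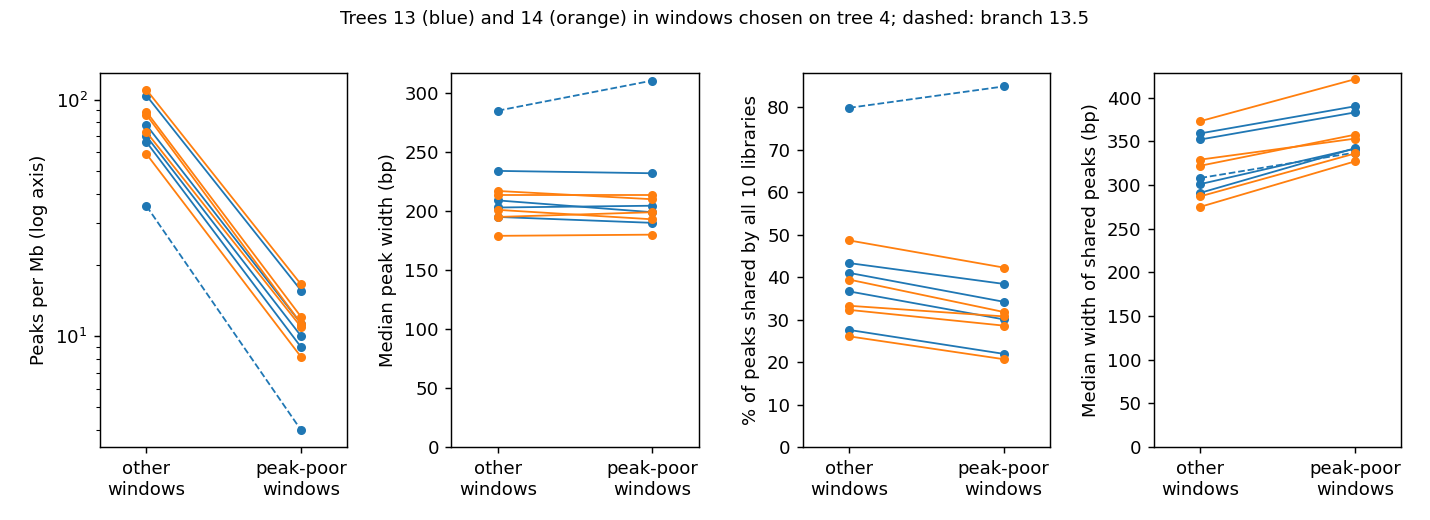
Values of the 10 libraries of trees 13 (blue) and 14 (orange) in the windows chosen on tree 4 and in the other windows, each library joined by a line, with branch 13.5 dashed: peaks per Mb (log axis), median peak width, percent of peaks shared by all 10 libraries and median width of those shared peaks. Peaks per Mb fell in each library, peak width did not move in 1 direction, the shared percent was lower in 9 of 10 and the shared peaks were wider in 10 of 10.

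Width and strength of the peaks did not differ detectably in these windows. Median peak width was 213.2 ± 37.1 bp (n = 10) against 213.2 ± 29.3 bp, a difference of 0 ± 10.1 bp that was positive in 4 libraries, negative in 5 and 0 in 1 (exact sign-flip permutation test, p = 1; adjusted p = 1). The median −log10 q-value was 5.34 ± 0.371 against 5.31 ± 0.354, a difference of 0.0273 ± 0.216 (exact p = 0.688; adjusted p = 0.961). The difference in width became 12.3 bp (exact p = 0.00586) when peaks under 159 bp, the largest of the minimum widths of the 14 lists, were left out. The difference in −log10 q-value turned negative under several settings, and its value was −0.255 (exact p = 0.00977) with the lowest 5% of windows in place of 10% and −0.175 (exact p = 0.0137) with the lowest 10% within each chromosome.

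Peaks in the windows chosen on tree 4 were less often shared by all 10 libraries of trees 13 and 14. The share was 36.4 ± 18.3% against 40.8 ± 15.4%, a difference of −4.45 ± 3.66 percentage points, lower in 9 of 10 libraries (exact sign-flip permutation test, p = 0.00977; adjusted p = 0.0391). A peak counted as shared only if all 10 libraries had it, so each library held the same shared regions, as 129 to 132 peaks. The libraries are thus not separate draws of regions, and the p-value does not allow for this. Branch 13.5, which has the shortest list, was the exception to the lower share, with 84.9% against 79.8%. The difference shrank to −1.62 points without this library (exact p = 0.0703), to −3.42 with lists cut to equal length (exact p = 0.0508) and to −1.80 without peaks under 159 bp (exact p = 0.162). It turned to 9.35 points in favour of the peak-poor windows when only peaks with a −log10 q-value of at least 10 were kept (exact p = 0.00195). The lower sharing was therefore a call that depended on these settings.

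The shared peaks themselves were wider in the windows chosen on tree 4. Their median width was 359 ± 29.9 bp against 320 ± 33.2 bp, a difference of 39.1 ± 10.3 bp (range 24.0 to 52.0 bp), larger in 10 of 10 libraries (exact sign-flip permutation test, p = 0.00195, the smallest possible). This test was added after the widths of the members called in all 14 libraries had been seen. It covers 129 to 132 peaks per library, which lie in the same regions in each, so the libraries repeat the same peaks and are not separate draws of regions. Without branch 13.5 more regions count as shared, and the difference was 10.1 bp (exact p = 0.0156). It was 66.6 bp with the lowest 5% of windows, and 20.9 bp (range 15 to 28) with windows chosen on trees 13 and 14 and measured in tree 4.

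The trees did not differ detectably in the share of peaks that lay in the peak-poor windows. The share in branches 13.1 to 13.5 was 1.57, 1.60, 1.55, 1.5 and 1.18%, in branches 14.1 to 14.5 it was 1.46, 1.55, 1.62, 1.44 and 1.5%, and in branches 4.2 to 4.5 it was 1.48, 1.54, 1.56 and 1.71%. Apart from the low value of branch 13.5, the 3 ranges overlapped. Tree 13 minus tree 14 was −0.0350 points (1.48 ± 0.173% against 1.51 ± 0.0726%; exact permutation test, p = 0.841; adjusted p = 0.961) and the stems minus tree 4 was −0.0768 points (1.5 ± 0.127%, n = 10, against 1.57 ± 0.101%, n = 4; exact p = 0.329; adjusted p = 0.876). The first difference turned to 0.0408 points without branch 13.5. The windows were chosen on the counts of the same 14 libraries, 10 of them from the stems. The shares compared here are thus not independent of that choice, and the p-values do not allow for it.

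Nor did the width contrast between the same windows, chosen on the counts of these libraries, differ detectably between trees. The median peak width in peak-poor minus other windows was 3, −4, −1, −3 and 28 bp in tree 13, −8, 4, −11.5, 0 and 7 bp in tree 14, and −4, 17.5, 2 and −2 bp in tree 4. The difference between tree 13 and tree 14 was 6.30 bp (exact permutation test, p = 0.484; adjusted p = 0.961), and between the stems and tree 4 it was −1.93 bp (exact p = 0.809; adjusted p = 0.961).

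**Figure D5:**
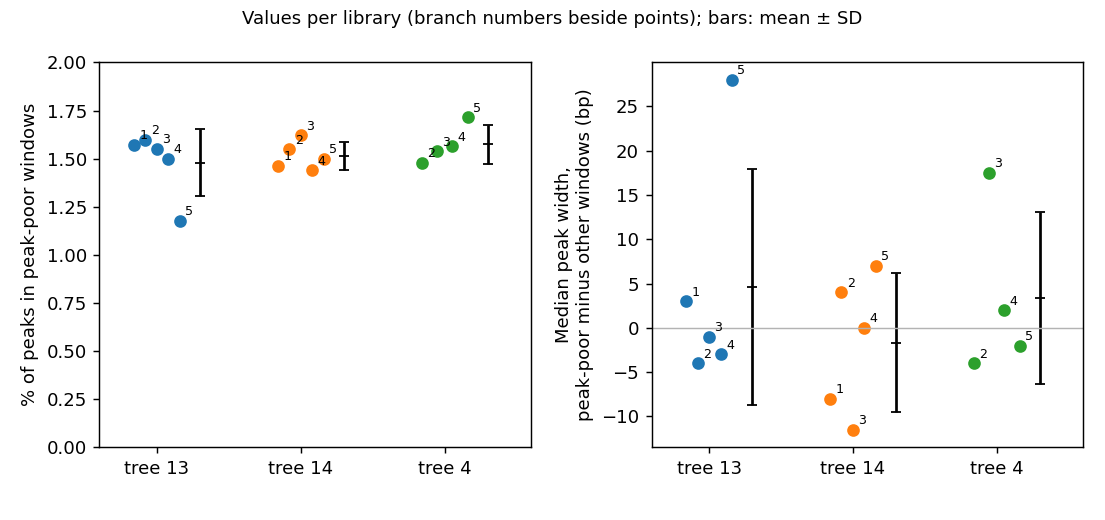
Percent of each library's peaks in the peak-poor windows (left) and median peak width in peak-poor minus other windows (right), 1 point per branch with its number, and mean ± SD for trees 13 (n = 5), 14 (n = 5) and 4 (n = 4). The points of the trees overlap in both panels, and branch 13.5 stands apart with 1.18% and 28 bp.

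Calls of single members were compared between trees with two-sided Fisher's exact tests, over all regions of the genome whose number of calls lets the test reach an unadjusted p under 0.05. Between tree 13 and tree 14, 147 members could be tested and 6 of them (4.08%) passed at unadjusted p under 0.05, against 3.04% of all 9024 regions tested. All 6 were called more often in tree 14, the direction of 2.84% of all regions tested, and 0 in tree 13, the direction of 0.199%, and branch 13.5 of tree 13 has the shortest list of all. After Benjamini-Hochberg adjustment over the 9024 regions, 0 remained anywhere in the genome. With 5 against 5 libraries the smallest p of Fisher's exact test is 0.00794, which a few regions cannot carry past this adjustment. The 0 was thus close to fixed in advance, and no conclusion is drawn from it. In every library of one stem and in none of the other, 0 members were called, against 0.0111% of regions only in tree 13 and 0.133% only in tree 14. The share of members past the unadjusted threshold was near that of all regions, so it is not a result about the peak-poor windows. The number was 12 without branch 13.1 or 14.1, 18 without 13.2, 10 without 13.5, 14.2 or 14.4, and 21 without 14.5. Leaving out a library changes which numbers of calls can reach the threshold. The share over all regions is not given for these settings, so the counts are no result about the members.

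All 6 had an unadjusted p of 0.0476 by Fisher's exact test. The members chr14:14014741-14014998 and chr13:8087706-8088046 were called in 4 libraries of tree 14 and in none of trees 13 and 4. The first lies in the run of 3 windows on chromosome 14 and its −log10 q-values were 3.56, 3.67, 9.71 and 3.98 in branches 14.1 to 14.4. Its value in branch 14.3, the longest list, was far above the other 3. The members chr2:18417113-18417454, chr10:5425278-5425499 and chr19:7961937-7962285 were each called in 5 libraries of tree 14 and only in branch 13.2 of tree 13, the longest list of that tree. The member chr4:14995361-14995937, also in a run of 3 windows, was called in 5 libraries of tree 14, in branch 13.2 and in all 4 libraries of tree 4, with −log10 q-values from 2.22 to 7.17. In 5 of the 6, at most 1 library of tree 4 called the region.

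Between the stems and tree 4, 304 members could be tested and 2 (0.658%) passed at unadjusted p under 0.05, against 0.996% of all 18566 regions tested. Both were called more often in tree 4, the direction of 0.56% of all regions tested, and 0 in the stems, the direction of 0.436%. After adjustment 0 regions remained. With 10 against 4 libraries the smallest p of Fisher's exact test is 0.000999, which a few regions cannot carry past the adjustment, so no conclusion is drawn from this 0. In every library of one individual and in none of the other, 0 members were called, against 0% of regions only in the stems and 0.0162% only in tree 4. The 2 members past the unadjusted threshold lay on chromosome 8, in different windows. The member chr8:16303882-16304381 was called in all 4 libraries of tree 4, with −log10 q-values of 3.18, 3.60, 2.995 and 3.75, and in branches 14.3 and 14.4, with 3.48 and 2.96 (Fisher's exact p = 0.0150). The member chr8:18151055-18151319 was called in branches 4.2, 4.3 and 4.5, with 5.78, 3.76 and 3.87, and in branch 13.2, with 6.02 (Fisher's exact p = 0.0410). At the first of these the values of the stems and of tree 4 overlapped, and at the second the 1 value in the stems was above the 3 of tree 4. The number of members past the threshold was 1 without branch 13.2, 13.3, 14.1 or 14.3, 4 without 14.5 or 4.2, 5 without 13.5 or 4.4, and 8 without 4.3 or 4.5. These counts, too, have no share over all regions beside them and are no result about the members.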

How the data were processed

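ATAC-seq was made from leaves of *Populus trichocarpa*. The authors deposited a list of peaks per library for 15 libraries, with no pooling. Per the file headers, a list holds peak coordinates, the caller's score, and the −log10 of the p-value and of the q-value. The submitters' processing notes name Trimmomatic 0.36, Bowtie 1.1.1 and MACS2 2.1.2, without settings. The genome build is not given there. The lists hold only peaks past a threshold (lowest −log10 q-value of a list 2.00 to 2.05), with minimum widths from 90 to 159 bp. They hold no read counts, so depth is unknown and counting intervals cannot be computed. Coordinates are printed as deposited, and whether starts count from 0 or 1 is not given.

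The tree number of each title set the group. Peaks were merged where they overlapped or touched, and regions were assigned to windows by midpoint. A library called a region if any base of its peaks fell in it. Chromosome length was taken as the furthest peak end, and the last partial window was dropped. The members and the tests were chosen with earlier results of these data known. Named regions were the 3 members called in all 14 libraries with the highest mean rank, the 3 widest, those past an unadjusted p of 0.05, and the one in the emptiest window.

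Differences were tested with two-sided exact permutation tests over libraries, and Benjamini-Hochberg adjustment covered 8 tests. With 5 against 5 libraries the smallest p is 0.00794, and with 10 against 4 it is 0.000999. Fisher's exact test was used per region. Branch numbers of trees 13 and 14 did not pair libraries (correlation of deviations over all regions from −0.0912 to 0.120 in 5 pairs). Scripts were tested on simulated data. Region midpoints lay within 300 bp of a gene end of the RefSeq annotation (P.trichocarpa_v4.1) in 11.4% of cases and in 11.3% after a shift of 10 kb, so that annotation was not used and no gene or sequence is given. Alternatives were the strongest 50% of each list, a −log10 q-value of at least 10, equal list lengths, a minimum width, 50% overlap for a call, windows of 500 kb or offset by 500 kb, the lowest 5%, the lowest 10% within each chromosome, windows chosen on trees 13 and 14, the replicate block and leaving out libraries. Scripts ran in Python 3.11.15 with scipy 1.17.1, pandas 2.3.3 and numpy 2.4.6, and figures were drawn with matplotlib 3.10.9.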

Additional observations from a re-analysis of the deposited data

Results flagged for a closer look

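Within each tree, 21 groups of values were examined for a library that stood apart, and 3 were found, where chance gives about 1 in 20. Branch 13.5 stood apart in tree 13 by its share of peaks in the peak-poor windows, 1.18%, where the nearest branch had 1.5%. The same branch stood apart by the difference in median peak width between peak-poor and other windows, 28 bp, where the nearest had 3 bp. Its list is the shortest of the 14, and the part of list length in these values was not tested separately.

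Branch 14.3 stood apart in tree 14 by the difference in median −log10 q-value between the windows, −0.347, where the nearest branch had 0.0297. Its list is the longest of the 14.

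The library titled 1.1 was used in no comparison. Of its 26955 peaks on the chromosomes, 389 (1.44%) lay in peak-poor windows, with a median width of 285 bp against 282 bp elsewhere. Of the 389, 10 (2.57%) overlapped no region of the other 14 libraries, against 1.83% of its peaks in other windows.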

How the results depend on the processing

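The lists give no depth, call each library with its own threshold and allow no view of reads below it. The density contrast stayed between −2.90 and −2.82 (log2) when 1 library was left out, and with windows chosen on trees 13 and 14 and measured in tree 4 it was −2.76 (exact p = 0.125, the smallest 4 libraries allow). Over all 191 recomputations of the 8 tested results, 20 reversed sign, of which 1 was in a result past the threshold (the shared percent), and the cause was not tested. The difference in median peak width was 0 as reported, so none of its recomputations could count as reversed. Its values ran from −7.65 bp with 500 kb windows to 12.3 bp with peaks of at least 159 bp.

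The difference in −log10 q-value was −0.0613 with the strongest 50% of each list, −0.168 with 500 kb windows, −0.116 with offset windows, −0.255 with the lowest 5%, −0.175 within chromosomes, −0.0223 without both 13.4 and 14.1, −0.103 in tree 4 and −0.105 to 0.0695 leaving out 1 library. The difference in the shared percent was 9.35 at a −log10 q-value of at least 10, −3.42 with equal lists, −1.80 with peaks of at least 159 bp, −2.63 in tree 4 (exact p = 0.125) and −6.81 to −1.62 leaving out 1 library. The width difference was 12.3 bp with peaks of at least 159 bp and −4.35 to 1.11 bp leaving out 1 library. The width of shared peaks was larger by 10.1 bp without 13.5, by 66.6 bp with the lowest 5% and by 20.9 bp in tree 4.

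For the share of peaks in peak-poor windows, tree 13 minus tree 14 was 0.0141 with equal lists and −0.0764 to 0.0408 leaving out 1 library; the stems minus tree 4 was 0.00706 with equal lists and −0.0867 to −0.0115. For the width contrast, the stems minus tree 4 was 4.08 bp at a −log10 q-value of at least 10, 2.20 bp with 500 kb windows, 0.200 bp with the lowest 5%, 0.125 bp without both 13.4 and 14.1 and −5.10 to 1.18 bp leaving out 1 library, and tree 13 minus tree 14 was 0.450 to 12.3 bp.

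Members past an unadjusted p of 0.05 between tree 13 and tree 14 numbered 1 with the strongest 50%, 0 at a −log10 q-value of at least 10, 0 with equal lists, 3 with peaks of at least 159 bp, 10 within chromosomes, 1 without both 13.4 and 14.1 and 6 to 21 leaving out 1 library. Against tree 4 they numbered 0, 1, 0, 5, 1 and 0 under the same settings, 8 with 50% overlap, 0 with the lowest 5% and 1 to 8 leaving out 1 library. The share over all regions is not given for these settings, so the counts are no result about the members. With branch number as a replicate block, the difference between trees 13 and 14 was −0.0350 points in the share of peaks (exact p = 0.812) and 6.30 bp in the width contrast (exact p = 0.375), and 0 members passed, since a sign test over 5 pairs cannot reach 0.05. The branch numbers do not pair the libraries, so this is no weaker effect.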
